A study of Mus musculus with 2 samples.

Results

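The Gimap genes encode GTPases of the immunity-associated protein family, and the mouse array measured 8 of them: Gimap1, Gimap3, Gimap4, Gimap5, Gimap6, Gimap7, Gimap8 and Gimap9. They were read by the 11 probe sets annotated to exactly 1 gene, that gene being a Gimap, out of 34945 probe sets for 18194 genes. Gimap4, Gimap6 and Gimap7 had 2 probe sets each and the other 5 genes had 1. The family was chosen on signals of the same 2 arrays that are compared here, so the difference between the arrays is given as a description, with no test. By the submitters' labels, the arrays carried total RNA of bEnd3 cells, an endothelial line from brain microvessels of the cerebral cortex of BALB/c mice that is transformed by polyoma middle T antigen. Also by the submitters' account, both groups were infected with retrovirus made in PLAT-E packaging cells, carrying an siRNA against Smad4 in one group and a control siRNA in the other, and both were selected with puromycin. Each group had 1 array of RNA pooled from 2 infections, so nothing here was repeated in a second array, and precision is limited by that. Several transcripts go against these labels, as described before the Gimap values.

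GIMAP proteins are GTP-binding proteins related in their GTPase domain to the septins, and several of them sit on intracellular membranes such as those of lysosomes, mitochondria, the Golgi or the endoplasmic reticulum. They are best known in lymphocytes, where loss of some members shortens the life of T and B cells, and some bind proteins of the Bcl2 family, which control apoptosis. Several members are also expressed in vascular endothelium. The genes lie side by side in a single cluster in mouse and human.

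In GRCm38.p6, the RefSeq assembly used for names and order, the 8 genes fill chr6:48647186-48770851, a span of 124 kb that holds 10 annotated genes, 8 of them protein-coding. The remaining 2 are the pseudogene Gm44262 and the long non-coding RNA Gm46958, neither of which has a probe set of its own here. The order is Gimap8, Gimap9, Gimap4, Gimap6, Gimap7, Gimap1, Gimap5 and Gimap3. Gimap6 and Gimap3 are read from the minus strand and the other 6 from the plus strand. RefSeq promoters, from 250 bases before to 50 bases after the transcription start, matched all 8 genes and gave 9 windows, since Gimap8 has 2 starts. The 2 windows of Gimap8 overlap, so the 9 are not separate stretches. The windows of Gimap6, Gimap8 (its upstream start) and Gimap1 are shown because these genes had the largest bounds in the comparison below, and that of Gimap3 because it was the only member with a higher measured signal. They are read 5′ to 3′ on the gene's own strand, with every GGAAG, the core letters bound by ETS factors, in capitals on either strand, so that CTTCC marks a match on the opposite strand.
Gimap6, chr6:48708195-48708494, minus strand: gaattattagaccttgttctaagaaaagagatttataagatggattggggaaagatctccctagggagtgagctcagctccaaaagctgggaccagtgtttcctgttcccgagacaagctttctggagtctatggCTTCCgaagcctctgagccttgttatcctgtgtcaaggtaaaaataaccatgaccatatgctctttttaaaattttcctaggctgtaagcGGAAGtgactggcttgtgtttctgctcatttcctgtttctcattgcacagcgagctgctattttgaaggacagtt
Gimap8, chr6:48646984-48647283, plus strand: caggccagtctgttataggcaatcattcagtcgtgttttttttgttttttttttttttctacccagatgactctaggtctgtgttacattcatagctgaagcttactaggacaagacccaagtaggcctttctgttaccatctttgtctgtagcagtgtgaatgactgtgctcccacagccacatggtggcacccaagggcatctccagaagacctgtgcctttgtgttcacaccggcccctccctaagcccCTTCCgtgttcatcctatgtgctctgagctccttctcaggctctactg
Gimap1, chr6:48738797-48739096, plus strand: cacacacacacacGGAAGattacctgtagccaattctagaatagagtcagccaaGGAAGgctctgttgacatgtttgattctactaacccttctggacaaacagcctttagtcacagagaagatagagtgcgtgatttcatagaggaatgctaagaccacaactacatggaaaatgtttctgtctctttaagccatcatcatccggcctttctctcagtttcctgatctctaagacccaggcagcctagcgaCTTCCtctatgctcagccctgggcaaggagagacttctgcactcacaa
Gimap3, chr6:48770802-48771101, minus strand: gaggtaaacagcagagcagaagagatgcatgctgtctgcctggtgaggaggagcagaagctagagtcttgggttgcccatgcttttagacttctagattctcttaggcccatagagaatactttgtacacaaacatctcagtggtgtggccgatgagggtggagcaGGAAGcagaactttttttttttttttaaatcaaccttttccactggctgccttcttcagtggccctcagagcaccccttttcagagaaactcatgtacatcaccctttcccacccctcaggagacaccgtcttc

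All 9 Gimap windows held GGAAG, as did 71.4% of the 32851 RefSeq promoters of 300 bases, so the match is frequent everywhere. The longer CGGAAG, which contains GGAAG, was found in Gimap6, Gimap1 and both Gimap8 windows. That is 4 of 9 windows, from 3 of 8 members, against 16.9% of all promoters. The Gimap8 windows overlap and hold the same match, so that site is counted in both. In Gimap6 it lay at -26 to -21 from the start site and on the opposite strand at -115 to -110. In the upstream Gimap8 window it lay on the opposite strand at 3 to 8, where the start is position 1. Those same bases are at -125 to -120 in the downstream Gimap8 window. In Gimap1 the match lay farther up, at -238 to -233. Searched on both strands in the same way, the RUNX letters TGTGGT were present in Gimap4, Gimap7 and Gimap1, each on the opposite strand (16.8% of all promoters). The E-box CAGNTG, searched likewise, was in 4 of 9 windows, from 4 of 8 members (51.4% of all promoters). TATAAA was in the Gimap6 window only, on the opposite strand at -219 to -214 (13.6% of all promoters on either strand). GATAAG (7.44%) and the Smad palindrome GTCTAGAC (0.213%) were not among the letters of any of the 9 windows. A match is a run of letters and was not tested as a binding site.

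The Gimap promoters were below the median of all promoters in CpG content, some of them only slightly. The ratio of observed to expected CpG was 0.104 in Gimap7, 0.116 in Gimap3, 0.174 in Gimap5, 0.252 in Gimap4, 0.257 in Gimap1, 0.286 in Gimap6 and 0.325 in Gimap9, and 0.178 and 0.107 at the upstream and downstream starts of Gimap8. All 9 lay below 0.384, the median over all promoters, whose lower quartile was 0.176. The values at the Gimap8 starts come from overlapping windows and are not independent. The share of promoters at or below each ran from 13.9% for Gimap7 to 40.3% for Gimap6 and 44.7% for Gimap9. Their GC content ran from 43.3% to 57.3%, around the overall median of 52.7%. CpG content below the median was shared by members that were lower in the comparison below and by members that were not.

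**Figure D1:**
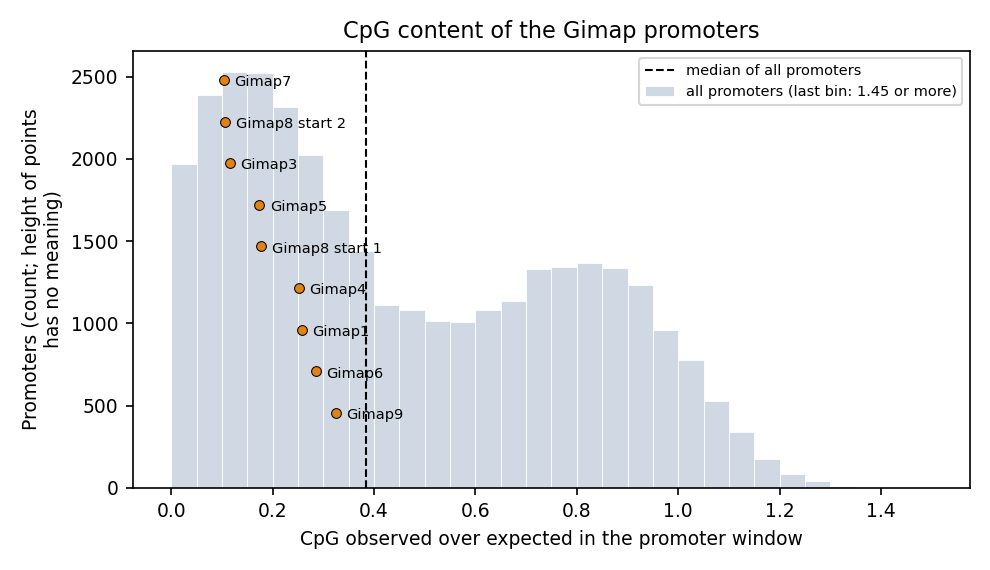
Histogram of the ratio of observed to expected CpG in 32851 RefSeq promoters of 300 bases (x axis, ratio; y axis, number of promoters), with the 9 Gimap promoters as orange points whose height has no meaning. All 9 points lie left of the dashed median of 0.384, between 0.104 and 0.325, and those of Gimap8 come from overlapping windows.

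The signals are MAS5 probe set intensities, quantile normalized here between the arrays. A floor of 22.8, the median of each normalized array, stood in for detection calls. Where only 1 array reached the floor, the bright signal over the floor gives a bound, written "at least N-fold". A bound depends on how bright the probe set is, so the order of bounds is not an order of changes, and signals of different probe sets are not compared. "Lower" and "higher" give the direction on the array labelled Smad4-siRNA relative to the Control-siRNA array.

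Some facts of the arrays stand beside all Gimap values. The targeted Smad4 transcript differed by less than 2-fold between the arrays, with log2 ratios of 0.25, 0.58 and 0.35 over its 3 probe sets, or -0.12, 0.21 and -0.07 in the deposited signals. Its brightest probe set had signals of 916 on the Control-siRNA array and 1165 on the other. Xist, the RNA of the inactive X chromosome, was at 20.7 on the Control-siRNA array and 4476 on the other in its brightest probe set. The Y-linked Eif2s3y was at 324 and 0.349 in the same order, Kdm5d at 122 and 4.69 and Uty at 112 and 4.03. Endothelial genes such as Pecam1 (1885 on the Control-siRNA array and 1.46 on the other) and Cldn5 (1646 and 1.33) were below the floor on that other array, where the fibroblast collagen gene Col1a2 was at 7389 against 19.3 in the control. These values go against the label of 1 endothelial line on both arrays and give no sign that Smad4 was silenced. Whether the 2 arrays came from cells of the same origin is not settled by the labels, and an effect of the siRNA on Gimap genes cannot be told apart from a difference between the cells. The log2 signals of all probe sets correlated across the arrays at 0.823, over probe sets that are not independent replicates.

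On the Control-siRNA array, 6 of the 8 Gimap genes reached the floor, and on the array labelled Smad4-siRNA none of these 6 did. Over all genes, 10488 reached it on the Control-siRNA array, and 9.62% of these were below it on the other. Of the 7 genes measured on at least 1 array, 5 were lower by 2-fold or more, 0 were higher and 2 lay between, and the 5 lower ones were lower by 8-fold or more too. This last count was 3 with a pseudocount. It was also 3 with the arrays centred on the median log2 ratio of probe sets at or above the median signal on both. Under a 75th-percentile floor it was 0, and the count lower by 2-fold or more was 3. Among all 11581 genes so measured, 15.8% were lower and 16% higher by 2-fold or more, and 1.51% lower by 8-fold or more. An 8-fold bound needs a Control-siRNA signal of at least 8 times the floor, which 5 Gimap genes had, and 3.15% of the 5562 genes that had it were lower by 8-fold or more. At the level of probe sets, 6 of 8 measured for the family were at least 2-fold lower, beside 15.8% of 21704. Since the family was chosen on this contrast, these shares are given as background only. The median log2 ratio or bound was -3.05 over the 7 genes and -0.11 over all measured genes.

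Gimap6, a cytosolic member that binds an autophagy protein of the GABARAP group, had a signal of 645 on the Control-siRNA array and of 0.391 on the array labelled Smad4-siRNA. It was at least 28.3-fold lower by this probe set. Its second probe set had signals of 62.9 and 0.466 in the same order, which makes it at least 2.76-fold lower. Gimap6 was thus the only member of the 5 with a second probe set as a check, and both were above the floor in the control and below it on the other array.

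Gimap8, a member with several GTP-binding domains in 1 protein, had a signal of 422 on the Control-siRNA array and of 5.43 on the array labelled Smad4-siRNA. It was at least 18.5-fold lower.

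Gimap1, which lymphocytes need to mature and survive, had a signal of 265 on the Control-siRNA array and of 1.16 on the array labelled Smad4-siRNA. It was at least 11.6-fold lower. Gimap5, a lysosomal member whose loss causes lymphopenia in rats and mice, had signals of 189 and 0.353 in the same order. It was at least 8.29-fold lower.

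Gimap9 had signals of 186 on the Control-siRNA array and 1.17 on the array labelled Smad4-siRNA, and was at least 8.16-fold lower. Gimap9 and Gimap5 are just inside the 8-fold limit, and their bounds cannot be larger because their control signals are close to 8 times the floor. The 5 lower members stood between the 80.1st and 93.3rd percentile of all probe sets on the Control-siRNA array and were all below the floor on the other.

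The other members were at or near the floor. Gimap4, which acts in T lymphocyte apoptosis, had signals of 32.2 on the Control-siRNA array and 4.65 on the array labelled Smad4-siRNA in the probe set that represents it, which carries a suffix for shared sequence. It was at least 1.42-fold lower, so its difference may be larger but is not measured. Its second probe set was below the floor on both arrays, at 14.5 and 9.76.

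Gimap7, whose protein promotes GTP hydrolysis by pairing with a partner GIMAP, was below the floor on both arrays in both probe sets. Its signals were 8.63 and 2.08 in the first and 6.56 and 5.14 in the second, in the order Control-siRNA and Smad4-siRNA. No fold is given for it.

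Gimap3, the closest relative of Gimap5 and in mice a protein of mitochondria and the endoplasmic reticulum, was the only member higher on the array labelled Smad4-siRNA. Its signal was 26.7 there and 17.6 on the Control-siRNA array, which is under the floor. This is at least 1.17-fold higher, a bound that does not reach 2-fold, and a larger difference is not measured. As deposited the signals were 29.0 and 16.4. Gimap3 and Gimap5 were told apart by the Entrez identifiers of their probe sets, because Gimap5 is also an older name of Gimap3, and whether their probes read each other's transcripts was not tested.

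**Figure D2:**
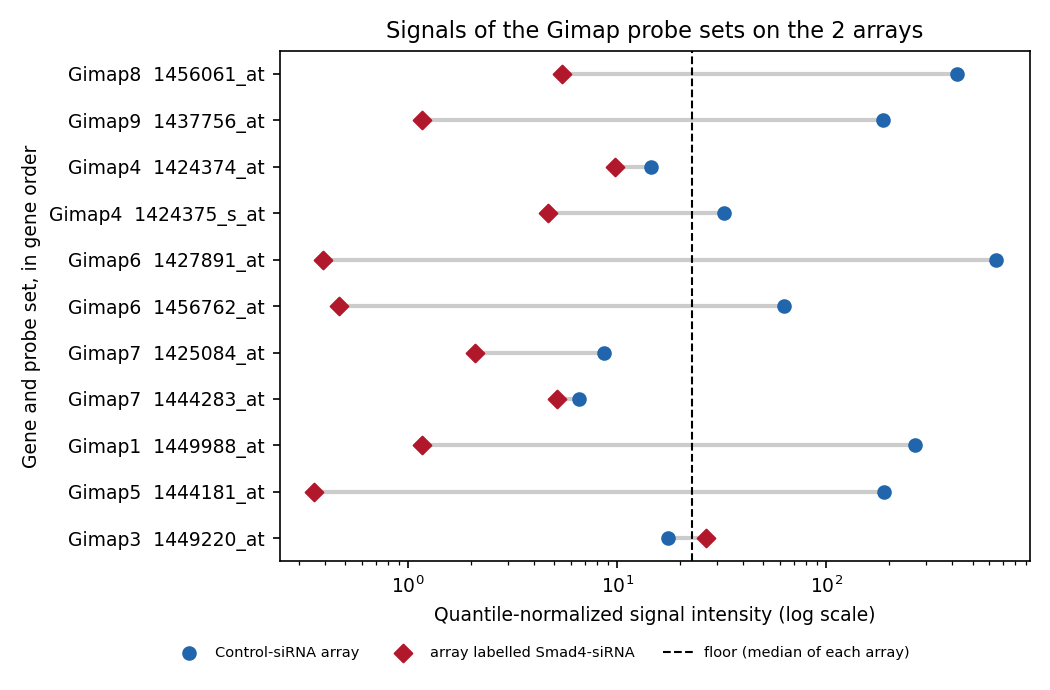
Quantile-normalized signal intensity (x axis, log scale) of the 11 Gimap probe sets (y axis, in gene order) on the Control-siRNA array (blue circles) and the array labelled Smad4-siRNA (red diamonds), 1 array each, with the floor of 22.8 dashed. The probe sets of Gimap8, Gimap9, Gimap6, Gimap1 and Gimap5 lie right of the floor in the control and left of it on the other array, and Gimap3 alone lies higher on the array labelled Smad4-siRNA.

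Genes on both sides of the cluster were described in the same way. Of the 10 genes with a probe set on each side, 20 in all, 1 was lower and 4 were higher by 2-fold or more, 10 lay between and 5 were below the floor on both arrays. Over all measured genes the shares were 15.8% lower and 16% higher, so 1 and 4 of 15 measured neighbours are near the background. Their median log2 ratio or bound was 0.11. The gene before Gimap8 is AI854703, 13.5 kb away, with a signal of 24.9 on the Control-siRNA array and one under the floor on the other, at least 1.10-fold lower. Before it, Zfp775 had signals of 44.9 and 40.3 and Repin1, a zinc finger gene, of 212 and 225. The 4 probe sets of Repin1 had log2 ratios from -1.06 to 0.30.

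The 2 nearest genes after Gimap3 were higher. Tmem176b and Tmem176a encode related membrane proteins of immune and other cells, and the nearer of them begins 63.0 kb past Gimap3. Tmem176b had signals of 356 on the Control-siRNA array and 2667 on the array labelled Smad4-siRNA, 7.50-fold higher. Tmem176a had signals of 130 and 1901 in the same order, 14.6-fold higher, and its 3 probe sets had log2 ratios of 3.87, 3.11 and 2.67.

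Farther out, Malsu1, Igf2bp3 and Tra2a had log2 ratios of 0.54, -0.27 and 0.56, and Lrrc61, Zfp467 and Sspo of 0.11, -0.31 and -0.44. These are values of 1 probe set per gene. Over all probe sets, with any under the floor, they ran from -0.42 to 0.54 for Malsu1 and -0.86 to 1.93 for Igf2bp3. For Tra2a they ran from 0.49 to 3.67 and for Zfp467 from -0.34 to 0.75. Ccdc126, the only neighbour that was at least 2-fold lower, had signals of 293 on the Control-siRNA array and 105 on the array labelled Smad4-siRNA, 2.79-fold lower by its single probe set. Krba1 and Zfp862-ps, at the far end on the other side, were at least 3.78-fold and 3.17-fold higher. The second probe set of Krba1 was below the floor on both arrays. Fam221a, at the opposite end, was at least 1.31-fold higher. Atp6v0e2, Rarres2, Aoc1, Doxl1 and Gpnmb were below the floor on both arrays.

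The gene lists that place the family among blood cells and endothelium were chosen with earlier results of these arrays known, and are described by counts. Markers of lymphocytes, the cells in which the family is best known, were near or below the floor. Of 18 with a probe set, 16 were below the floor on both arrays, among them Cd3e (2.65 on the Control-siRNA array and 2.64 on the other) and the B cell gene Ms4a1 (12.2 and 5.55). Zap70, a T cell kinase, was the only one that reached it in the control (38.2 and 46.8), and Cd8a was at 19.3 and 25.8. Their summed signal was 165 on the Control-siRNA array and 152 on the array labelled Smad4-siRNA. The sum includes the 16 genes below the floor on both arrays, so no fold is read from it. Of 17 markers of all leukocytes or myeloid cells, 11 were below the floor on both arrays, including Ptprc, the pan-leukocyte CD45 gene, at 2.07 and 1.64. The others were 4 within 2-fold, of which Laptm5 had a log2 ratio of -0.77, the lysosomal gene Cd68 at 23.3-fold lower and Cd53, a tetraspanin, at 13.5-fold higher.

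Endothelial markers were lower, as the 5 Gimap genes were. Of 25 measured, 24 were lower by 2-fold or more, 0 higher and 1 between, the last being Eng at a log2 ratio of -0.56. The shares over all measured genes, for this and the next lists, were 15.8% lower and 16% higher. Nos3, the endothelial nitric oxide synthase, was 102-fold lower, Ramp2, an adrenomedullin co-receptor, 59.8-fold and the phosphatase gene Ptprb 38.3-fold. Among bounds, Emcn was at least 136-fold and Esam at least 90.2-fold lower, and the log2 bound of Cd93 was -6.49. All 25 were at the floor or above in the control and 10 on the other array, and Vwf was below it on both. Their summed signal was 32895 and 1198, and their median log2 ratio or bound was -4.92. Fibroblast markers, with 7 of 8 at least 2-fold higher and a summed signal of 154 on the Control-siRNA array and 20366 on the other, and pericyte and smooth muscle markers, with 4 of 5 higher and sums of 102 and 3005, differed the opposite way. The collagen genes Col1a2 and Col3a1 were at least 324-fold and 265-fold higher and the matrix gene Fbln1 at least 155-fold, and Pdgfra was 7.24-fold higher. The contractile gene Acta2 was 48.8-fold higher, with bounds of 42.5-fold for Pdgfrb and 10.4-fold for Tagln. Des was at least 1.59-fold lower, and Rgs5, Myh11, Kcnj8 and Abcc9 were below the floor on both arrays. Of the fibroblast markers, Fap was at least 1.66-fold higher, and Lum and Thy1 were below the floor on both arrays. The part of these differences in the Gimap values was not tested. In bulk RNA, fewer cells of a type and less RNA per cell cannot be told apart.

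**Figure D3:**
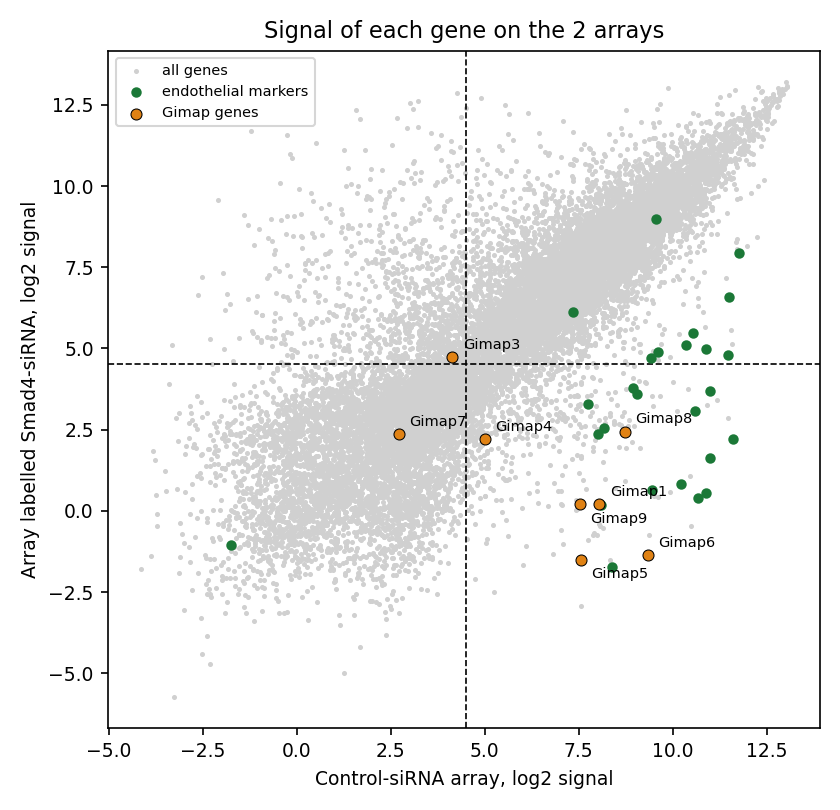
Log2 signal of 18194 genes on the Control-siRNA array (x axis) and the array labelled Smad4-siRNA (y axis), with the floor dashed, endothelial markers in green and the 8 Gimap genes in orange. Gimap8, Gimap1, Gimap9, Gimap6 and Gimap5 lie in the lower right field with most endothelial markers, and Gimap3 lies close to where the floors cross.

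Transcription factors of blood and endothelium were mixed. Of 17 measured, 10 were lower by 2-fold or more, 2 higher and 5 between, with a median log2 ratio or bound of -1.27. Over all measured genes 15.8% were lower and 16% higher, so the 2 higher of 17 are near the background. The ETS factor Erg, which is on the endothelial list too, was at least 30.7-fold lower (700 on the Control-siRNA array and 1.56 on the other), and Lmo2 and Tal1, partners in a complex of early blood and endothelial cells, were at least 18.7-fold and 14.2-fold lower. Among those measured on both arrays, Klf2, induced by blood flow, was 8.24-fold and the receptor Notch1 4.45-fold lower, whereas Runx1 was 4.74-fold higher, with signals of 138 on the Control-siRNA array and 656 on the other. Rbpj, the DNA-binding partner of Notch, was the other higher one, at 2.64-fold. RUNX and ETS letters in Gimap promoters are described above, and no link to these factors was tested.

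GTPases related to the family by structure or by role were the next lists. Of 9 measured septins, 0 were lower, 1 was higher and 8 lay between, with a median of 0.21, which is near the shares over all genes (15.8% lower and 16% higher). With the median over probe sets, 1 septin was lower and 0 were higher. Septin8, the higher one, had a log2 ratio of 1.01 and was within 2-fold as deposited, and the log2 ratios of Septin11 and Septin4 were 0.98 and -0.81. Of 10 measured interferon-induced GTPases, which attack the vacuoles of intracellular pathogens, 6 were higher by 2-fold or more, 0 lower and 4 between, with a median of 1.33, and as deposited 5 were higher. Iigp1 was 17.1-fold higher, Irgm2 7.77-fold and Gbp2 7.59-fold, and Gbp6, whose Control-siRNA signal was under the floor, at least 34.2-fold.

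Of 13 measured genes of the Bcl2 family, 3 were higher by 2-fold or more, 1 lower and 9 between, with a median of -0.53. Over all measured genes 16% were higher and 15.8% lower, so these counts are near the background. With the median over probe sets 1 was higher and 3 were lower, and the 75th-percentile floor left 1 higher and 1 lower. The pro-apoptotic Bcl2l11, which encodes Bim, was 2.59-fold higher with signals of 228 on the Control-siRNA array and 590 on the other. The anti-apoptotic Bcl2l1, which encodes Bcl-xL, was 2.19-fold lower, with signals of 318 and 145. The other higher genes were the pro-apoptotic Bmf, at least 4.02-fold, and Pmaip1, with a log2 bound of 1.58. Bok, also pro-apoptotic, had a log2 ratio of -0.76. Bcl2l11, Bcl2l1 and Bok were above the floor on both arrays, and the 5 lower Gimap genes on the Control-siRNA array only.

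**Figure D4:**
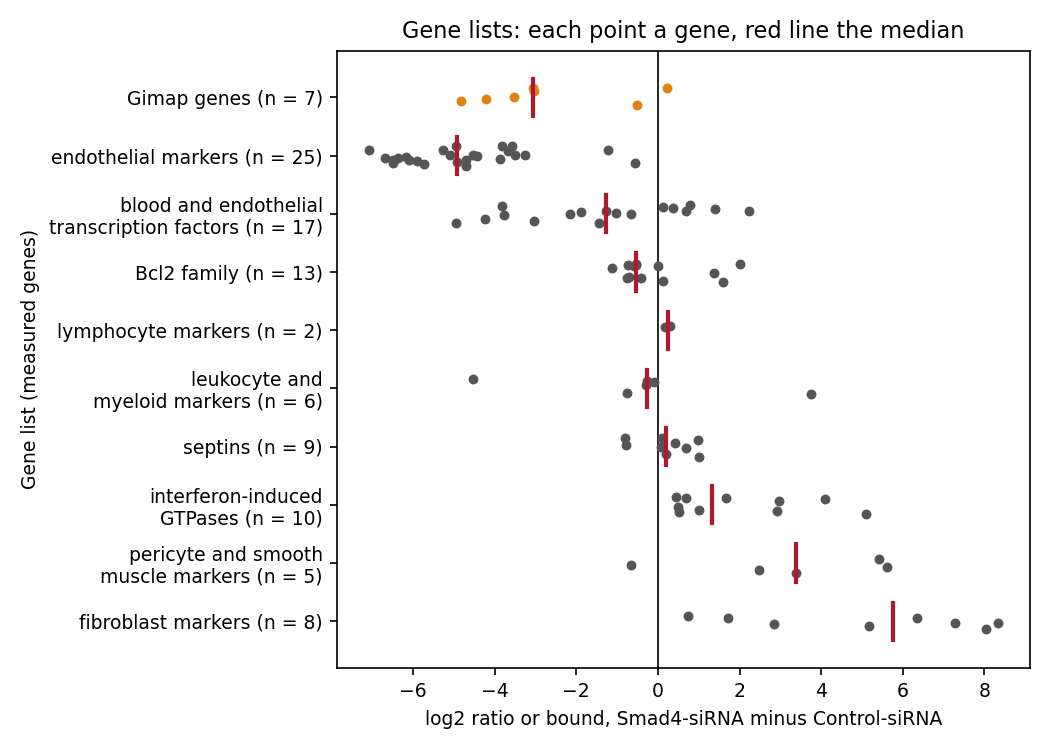
Log2 ratio or bound, Smad4-siRNA minus Control-siRNA (x axis), of each measured gene (points) of the Gimap family and of 9 gene lists (y axis, with the number of genes), with list medians as red lines. The medians are -3.05 for the Gimap genes, -4.92 for endothelial markers, 0.21 for septins and 1.33 for interferon-induced GTPases, and since many points are bounds that depend on the floor, their order is not an order of changes.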

How the data were processed

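The deposited values are linear signal intensity per probe set, computed by the authors with MAS5 per the submitters' processing notes (its version and scaling target: not given in the sources used here). Of 45101 probe sets, 64 controls were left out. Among the others 34945 had 1 gene, 932 had several and were not used, and 9160 were unnamed here. Names came from the platform annotation and were brought up to date through Entrez identifiers in NCBI's RefSeq table (GRCm38.p6, where 18032 of 18194 genes matched).

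Log2 signals were quantile normalized (Python 3.11.15, pandas 2.3.3). Each gene took the value of its probe set with the highest mean log2 signal. No test between groups could be made with 1 array each. The calling step was tested on a simulated array of 18194 genes, 200 of them bright and changed, and recovered 99% of these. The changed genes were all picked brighter than Gimap1, Gimap5 and Gimap9 are in the control. Each change was larger than the 2-fold limit, with equal numbers up and down. Far fewer genes were changed than the 1826 lower and 1849 higher by 2-fold or more between the real arrays. The simulated noise was smaller than the spread between probe sets of 1 gene. The share therefore says nothing about calls in genes as bright as those 3.

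Named were all members, the 20 neighbours, the checks of the arrays and, from each list, up to 3 genes measured on both arrays with ratios farthest from 0 and up to 3 with bounds of 8-fold or more. Pecam1, Cldn5, Cd8a, Cd3e, Ms4a1, Ptprc, Eng, Vwf, Rbpj, Bmf, Pmaip1 and Gm-named cluster genes were chosen outside that rule, after their values were seen. So were Des, Rgs5, Myh11, Kcnj8, Abcc9, Fap, Lum and Thy1. The members and lists were chosen with earlier results of these data known. Protein sequences were not analysed here. The alternatives covered scaling, the floor, a pseudocount and the choice of probe set.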

Additional observations from a re-analysis of the deposited data

How the results depend on the processing

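The 5 lower Gimap genes stayed lower by 2-fold or more as deposited, centred on the median log2 ratio and with a lowess trend removed. So they did with a 25th-percentile floor, without a floor, with a pseudocount, with the median over probe sets and without suffixed probe sets. With a 75th-percentile floor, 3 genes and 3 probe sets were lower by 2-fold or more and 0 genes by 8-fold or more. The count lower by 8-fold or more was 3 when centred on the median log2 ratio and with a pseudocount of the 25th percentile. Gimap4 joined the lower genes with the 25th-percentile floor and without a floor, giving 6. Of 53 alternative values of the Gimap probe sets, 32 stayed within the spread between probe sets of 1 gene (a pooled SD of 0.47 on the log2 scale), 21 moved further and 0 were reversed. The bounds follow the floor: that of Gimap6 was -4.82 on the log2 scale, -6.85 with the 25th-percentile floor and -2.34 with the 75th-percentile floor, where Gimap5 and Gimap9 were at -0.57 and -0.55. Among the 20 neighbours, 2 were lower with the 25th-percentile floor and without a floor, and 2 were higher with the 75th-percentile floor and 7 without a floor. The median log2 ratio of genes measured on both arrays was -0.15 in the reported setting and -0.33 as deposited. Of 162 alternative counts over the lists, 138 were within 1.5 times the count reported and 24 were not. Many of the 138 were counts of 0 that stayed 0, which says little. Lymphocyte markers lower by 2-fold or more went from 0 to 3 with the 25th-percentile floor. Without a floor 5 were lower and 3 higher. Signals below the floor give bounds only, and 1 array per group gives no error between cultures.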
